A study of Mus musculus with 24 samples.

Results

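The interferon regulatory factor (IRF) genes Irf1, Irf2, Irf3, Irf4, Irf5, Irf7, Irf8 and Irf9 were followed in mouse BMDMs, macrophages derived from bone marrow by culture. Members were taken by gene symbol, which gave 8 of the 24273 genes in the table, and all 8 passed the filter on low values. RNA sequencing libraries came from LysM-Cre control cells and from cells labelled FosKO, Fos-fl/fl LysM-Cre, where Fos was the intended target of Cre, and the comparison asked what FOS contributes to the response to lipopolysaccharide (LPS, a TLR4 ligand). Cells of both genotypes, of C57BL/6 background, carried LysM-Cre, which is Cre in the lysozyme gene Lyz2 and is expressed in myeloid cells, and the study's text gives the controls 1 floxed Fos allele where the series' design text names only LysM-Cre. Cells were kept overnight in 1% serum and left untreated (0 h) or given LPS at 100 ng/ml for 0.5, 1 or 2 h, with 3 libraries in each of the 8 groups and 24 libraries in all. Values were normalised log2 expression, 1 value per gene and library, and the number of reads behind them is unknown. The labels number the libraries of a group 1 to 3, and the study's methods call them biological replicates. Neither says whether those of a group came from separate mice or from separate cultures, so p-values measure only the spread between these libraries.

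IRF proteins bind the sequence GAAA, singly or repeated, through a shared N-terminal domain. IRF3 and IRF7 are present in the cytoplasm, are phosphorylated after TLR4 or nucleic acid sensors are engaged, and drive the interferon beta gene, and IRF5 is activated downstream of MyD88 and drives inflammatory cytokines. IRF9 is part of the complex ISGF3, which carries the signal of the type I interferon receptor to its target genes, Irf7 among them. IRF1 is an activator that is itself made in response to interferon and LPS, IRF2 binds the same sites and can repress them, and IRF4 and IRF8 act in lymphoid and myeloid cells together with partners such as PU.1.

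Promoter stretches of Irf1, Irf2 and Irf8 are shown because these genes hold motifs of interferon or LPS signalling close to their start sites. Irf7 and Irf4, which differed strongly between genotypes, hold none of the motifs searched. Irf8, Irf2 and Irf1, which hold some, also differed between genotypes after 2 h of LPS, by 1.33, 0.74 and 0.35 on the log2 scale. So did Irf5 (0.35) and Irf9 (0.23), which hold none, while Irf3, also without, was not called. A link between motifs and differences was not tested. Windows from 250 bases before to 50 bases after each RefSeq start site (GRCm38.p6) were found for all 8 genes, 11 windows in total, and were searched on both strands for the interferon-stimulated response element GAAANNGAAA, the gamma-activated site TTCNNNGAA, the AP-1 site TGANTCA and the kB site. These motifs were held by 3.44%, 8.30%, 7.81% and 4.51% of all 32851 promoter windows. The stretches below run 5′ to 3′ on the plus strand, and capitals mark the matches.
Irf1, chr11:53769914-53770013, bases -100 to -1: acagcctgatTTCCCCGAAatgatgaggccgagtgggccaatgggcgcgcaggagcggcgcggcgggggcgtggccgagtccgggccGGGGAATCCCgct
Irf2, chr8:46739495-46739539, bases -250 to -206: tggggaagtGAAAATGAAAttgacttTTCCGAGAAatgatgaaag
Irf2, chr8:46739718-46739744, bases -27 to -1: cgggggtgggGGGGATTTCCagcctcg
Irf8, chr8:120736177-120736223, bases -181 to -135: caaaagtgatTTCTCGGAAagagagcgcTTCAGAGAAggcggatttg
Irf1 held a gamma-activated site at -90 and a kB site at -13. Irf2 held a response element at -241, a gamma-activated site at -224 and a kB site at -17, and Irf8 held gamma-activated sites at -171 and -153. None of these letter patterns, AP-1 included, was in the windows of Irf3, Irf4, Irf5, Irf7 or Irf9, which says only that these letters are not in this window.

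The labels were checked before the members were read. Fos itself, for which there is 1 value per gene that does not separate the deleted part, was higher in FosKO-labelled libraries at 0 h (12.41 to 12.72 against 11.07 to 11.17), 1 h and 2 h, and lower only at 0.5 h (12.64 to 12.81 against 13.43 to 13.57), so the genotype is written below as the labels give it. LPS at 0.5 h raised Fos by 2.41 in LysM-Cre, whereas in FosKO-labelled libraries the change was 0.15 (adjusted p = 0.396) and not called, a difference in response of -2.26 (adjusted p = 1.38e-09). Lyz2, the gene that carries Cre, was at 16.08 to 16.33 in FosKO-labelled libraries and 10.87 to 11.57 in LysM-Cre. Macrophage markers were high in every library (Csf1r 14.95 to 15.28, Adgre1 14.61 to 15.21), and 8 of 8 passed the filter, with summed linear levels of 163200 to 192600 in LysM-Cre and 158700 to 207500 in FosKO-labelled libraries. Of the 7 markers with a single row in the table, 3 were higher in FosKO-labelled libraries at 0 h, as were 19.5% of all genes tested. These were Mertk by 0.97, Fcgr1 by 0.65 and Cd68 by 0.21. Another 3 were lower (Adgre1 at -0.15, Csf1r at -0.14 and Cd14 at -0.22), as were 15.9% of all genes. At 2 h 4 were higher (24.4% of all genes), Mertk by 1.65 and Fcgr1 by 0.73 among them, and none was lower (20.3%). In 5 libraries, LysM-Cre 0.5 h replicate 3, LysM-Cre 1 h replicates 2 and 3, and replicate 1 of FosKO-labelled libraries at 0.5 h and at 1 h, the 18S ribosomal RNA row Rn18s-rs5 was at 16.65 to 17.00 against 18.57 to 19.39 in the other 19, and genotype differences at 0.5 and 1 h are given within each set for all members but Irf3, which was called at neither time.

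Levels of different genes were compared only per length, as log2 value minus log2 of the exon length in kb. The exon length joins all annotated transcripts of a gene (GENCODE M21, GRCm38). For Irf7 this length, 3776 bases, is its whole locus, while for Irf5 it is 2905 bases, and other lengths were not tried. A shorter length for Irf7 would raise its level per kb, so its order with Irf5 rests on this annotation. In untreated LysM-Cre BMDMs this log2 level per kb was highest for Irf5 at 10.68, then 9.82 for Irf7, 9.38 for Irf1, 8.63 for Irf8, 8.33 for Irf9, 7.99 for Irf2 and 7.40 for Irf3, and it was 3.46 for Irf4. No 2 neighbours in this order overlapped among the 3 libraries. In untreated cells labelled FosKO the order changed at the top, with Irf7 at 11.02 above Irf5 at 10.73. After 2 h of LPS Irf1 led in both genotypes, at 12.07 in LysM-Cre and 12.42 in FosKO-labelled libraries. In the latter Irf5 (11.60) and Irf7 (11.55) overlapped and Irf8 had come up to 11.05, while in LysM-Cre Irf7 was at 10.50 and Irf8 at 9.72. Irf4 was the lowest of the 8 in every group.

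**Figure D1:**
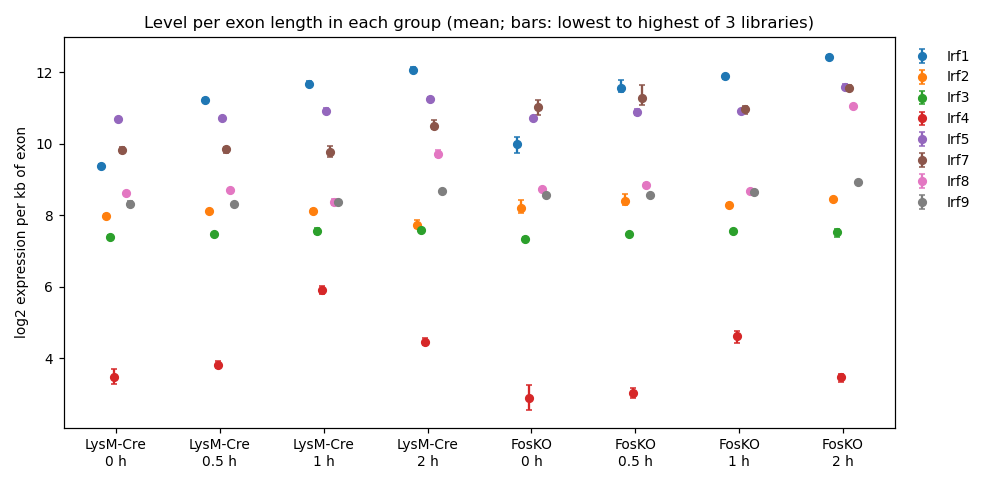
Log2 expression per kb of exon (vertical axis) for the 8 genes in each of the 8 groups (horizontal axis); points are means and bars run from the lowest to the highest of 3 libraries. Irf4 lies lowest in every group, between 2.88 and 5.90, and Irf7 stands at 9.77 to 10.50 in the LysM-Cre groups and 10.98 to 11.55 in those labelled FosKO.

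Between the genotypes, limma called 6 of the 8 genes different at 0 h (35.4% of all 13901 genes tested), 7 at 0.5 h (40.9%), then 4 at 1 h (33.9%) and, by 2 h, 7 (44.6%), each at an adjusted p under 0.05. The count at 0 h was 4 to 5 on leaving out a library of these groups, and 4 to 6 under the other settings. The count at 0.5 h fell to 3 (Irf4, Irf7 and Irf9) without replicate 3 labelled FosKO. Irf7, Irf8 and Irf9 were higher in FosKO-labelled libraries at all 4 times, as were 11.4% of genes, and Irf4 was lower at all 4 times, as were 7.11%. The call of Irf8 was lost at 0 h without any library of those groups, and at 0.5 h without replicate 3 labelled FosKO. That of Irf4 at 0 h was lost with only those groups in the fit. Irf3 was called at no time, like 35.6% of genes. The median log2 difference of the 8 genes was 0.17, 0.20, 0.19 and 0.35 at the 4 times, where the median of all genes lay within 0.01 of 0. The genotype comparisons use separate libraries at each time, but the LPS responses below share the 0 h libraries with each other and with the comparison at 0 h.

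**Figure D2:**
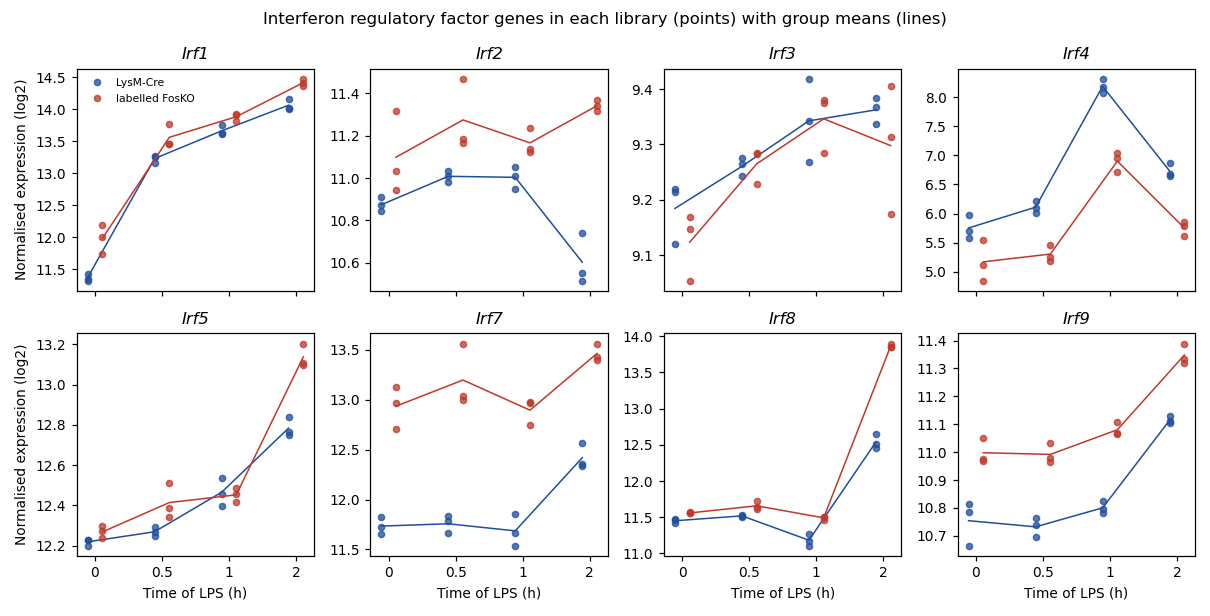
Normalised log2 expression (vertical axis, scaled per gene) against time of LPS in h (evenly spaced steps) in LysM-Cre libraries and FosKO-labelled libraries; each point is a library and lines join group means. Irf7 is separated by genotype at every time, Irf8 climbs mostly between 1 and 2 h, and Irf4 peaks at 1 h.

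Irf7 (ENSMUSG00000025498, chr7:141262706-141266481, minus strand), which amplifies type I interferon production, had the largest genotype difference of the 8 genes at 0 and 0.5 h. At 0 h its log2 values were 11.83, 11.72 and 11.65 in LysM-Cre and 12.71, 12.97 and 13.13 in FosKO-labelled libraries. At 0.5 h they were 11.83, 11.66 and 11.78 against 13.03, 13.001 and 13.56. At 1 h they were 11.54, 11.66 and 11.86 against 12.74, 12.98 and 12.96. Every library labelled FosKO lay above every LysM-Cre library at these times, and replicate 3 was the highest of its group at 0 and 0.5 h. At 2 h the values were 12.35, 12.33 and 12.57 against 13.40, 13.43 and 13.56, again with no overlap. Expression was higher in FosKO-labelled libraries by 1.20 (SE 0.12, adjusted p = 2.78e-07) at 0 h, 1.44 at 0.5 h, 1.21 at 1 h and 1.05 (adjusted p = 9.29e-07) at 2 h on the log2 scale, or 2.30-, 2.72-, 2.31- and 2.06-fold. A called difference of at least 2-fold was found for 1.47% of genes at 0 h and 1.99% at 2 h. Within the sets of low and high 18S RNA the differences were 1.25 and 1.54 at 0.5 h, and 0.98 and 1.44 at 1 h.

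LPS changed Irf7 late and by less than the genotype difference. At 0.5 and 1 h none of the 4 responses was called, and the values were 0.02 and -0.05 in LysM-Cre and 0.26 and -0.04 in FosKO-labelled libraries. At 2 h Irf7 rose by 0.69 (SE 0.12, adjusted p = 7.1e-05) in LysM-Cre and by 0.53 (adjusted p = 0.000985) in FosKO-labelled libraries, and the latter was 0.13 with adjusted p = 0.31 under quantile normalisation. The 2 h responses differed by -0.16 with a 95% interval from -0.53 to 0.22, which was not called. Phrf1, which overlaps Irf7 on the opposite strand, was not called between genotypes at any time (-0.03 at 0 h and -0.08 at 2 h).

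Irf9 (ENSMUSG00000002325, chr14:55603571-55610030), the DNA-binding subunit of ISGF3, differed by a small and even amount. Its values ran from 10.66 to 10.81 in LysM-Cre and from 10.97 to 11.05 in FosKO-labelled libraries at 0 h, and from 11.10 to 11.13 and 11.32 to 11.39 at 2 h, with no overlap. In time order from 0 h the difference was 0.24, 0.26, 0.28 and 0.23, each with SE 0.03, and the largest adjusted p was 9.16e-06. Within the low 18S set it was 0.24 at 0.5 h and then 0.26, and within the high set 0.27 and then 0.31. LPS at 2 h raised Irf9 by 0.36 in LysM-Cre and 0.35 in FosKO-labelled libraries, and the difference between these responses was -0.01 (95% interval -0.11 to 0.09). At 1 h the response in FosKO-labelled libraries was 0.08 and not called, but without replicate 3 at 0 h it was 0.11 (adjusted p = 0.0256), and with median centring it was also 0.11 (adjusted p = 0.0204). Rnf31, which overlaps Irf9 on the same strand, was also higher in FosKO-labelled libraries, by 0.39 at 0 h and 0.51 at 2 h, and whether the genes share reads was not tested.

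Irf3 (ENSMUSG00000003184, chr7:44997648-45002848), the factor that LPS activates by phosphorylation, varied least of the 8 genes, from 9.05 to 9.42 over all 24 libraries. Libraries of the genotypes overlapped at every time. The differences were -0.06, 0.00, 0.00 and -0.06 at the 4 times, and the 95% intervals all lay between -0.17 and 0.11, which bounds any difference in Irf3 RNA that these libraries allow. LPS at 2 h raised it by 0.18 (SE 0.05, adjusted p = 0.00402) in LysM-Cre and 0.17 (adjusted p = 0.00458) in FosKO-labelled libraries. At 1 h the rise was 0.22 in FosKO-labelled libraries and 0.16 in LysM-Cre, and the latter was not called without LysM-Cre 0 h replicate 2 (0.13, adjusted p = 0.091), without LysM-Cre 1 h replicate 3 (0.12, adjusted p = 0.102), in high 18S libraries alone (0.08, adjusted p = 0.491) or with the 18S set as a term (adjusted p = 0.0857). The RNA says nothing of the protein's phosphorylation.

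Irf5 (ENSMUSG00000029771, chr6:29526625-29541871), which acts downstream of MyD88, differed most between the genotypes after 2 h of LPS. At 0 h its values were 12.23, 12.23 and 12.20 in LysM-Cre and 12.24, 12.27 and 12.30 in FosKO-labelled libraries, a difference of 0.05 (95% interval -0.03 to 0.13) that was not called, although the libraries did not overlap. At 2 h they were 12.75, 12.77 and 12.84 against 13.11, 13.10 and 13.20. All 3 FosKO-labelled libraries lay above those of LysM-Cre at 2 h, by 0.35 on average (SE 0.04, adjusted p = 4.14e-07). At 1 h the groups overlapped (12.40, 12.46 and 12.54 against 12.42, 12.45 and 12.48) and differed by -0.01, which became -0.09 (adjusted p = 0.0378) under quantile normalisation. At 0.5 h the libraries did not overlap, and the difference of 0.14 (adjusted p = 0.00594) was not called without replicate 3 labelled FosKO (0.10, adjusted p = 0.0568) or under quantile normalisation (0.06). In the low and high 18S sets the difference of Irf5 was 0.14 and 0.15 at 0.5 h, and at 1 h it had opposite signs, -0.08 and 0.07. LPS at 1 h raised Irf5 by 0.25 in LysM-Cre and 0.18 in FosKO-labelled libraries, and under quantile normalisation these values were 0.05 and -0.010 and not called.

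Irf1 (ENSMUSG00000018899, chr11:53770014-53778374) had the largest rise of the 8 genes at 0.5 and 2 h after LPS in both genotypes, while at 1 h in LysM-Cre the rise of Irf4 (2.44) was above that of Irf1 (2.29). In LysM-Cre it went from 11.43, 11.35 and 11.32 at 0 h to 13.15, 13.27 and 13.26 at 0.5 h, and to 14.02, 14.01 and 14.15 at 2 h. In FosKO-labelled libraries it went from 11.74, 12.01 and 12.19 to 13.45, 13.45 and 13.77, and to 14.40, 14.36 and 14.47. No library after LPS overlapped the 0 h libraries of its genotype, and on the log2 scale the rise within 0.5 h made up most of the rise at 2 h. The change at 0.5 h was 1.86 (SE 0.09, adjusted p = 1.95e-12), or 3.63-fold, in LysM-Cre and 1.58, or 2.99-fold, in FosKO-labelled libraries. At 2 h it was 2.69 and 2.43, or 6.47- and 5.40-fold.

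The genotype difference of Irf1 was largest before LPS. It was 0.61 (SE 0.09, adjusted p = 1.75e-05) at 0 h, 0.33 (adjusted p = 0.00512) at 0.5 h, 0.22 at 1 h and 0.35 (adjusted p = 0.00288) at 2 h. The value at 1 h was not called (adjusted p = 0.0613, 95% interval 0.03 to 0.41), although the libraries did not overlap, but it was called with only those groups in the fit (adjusted p = 0.0143) and without LysM-Cre 1 h replicate 3 (0.27, adjusted p = 0.0483). Without replicate 3 labelled FosKO the value at 0.5 h was 0.22 (adjusted p = 0.0506), and under quantile normalisation the value at 2 h was 0.09 (adjusted p = 0.377). Within the sets of low and high 18S RNA the differences were 0.19 and 0.40 at 0.5 h, then 0.12 and 0.31 at 1 h. The LPS response of Irf1 was lower in FosKO-labelled libraries by 0.28 at 0.5 h, by 0.39 at 1 h and, at 2 h, by 0.26, none of which was called. With the replicate number as a term within genotype, the difference at 1 h was called (-0.39, adjusted p = 0.0399). Without replicate 1 labelled FosKO at 0 h, the lowest of that group, the difference in response was -0.51 at 1 h (adjusted p = 0.0168) and -0.38 at 2 h (adjusted p = 0.0233).

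Irf2 (ENSMUSG00000031627, chr8:46739732-46847458), the factor that shares binding sites with IRF1, fell in LysM-Cre and did not fall in FosKO-labelled libraries after 2 h. In LysM-Cre its values were 10.91, 10.87 and 10.84 at 0 h and 10.55, 10.52 and 10.74 at 2 h, a fall of 0.27 (SE 0.08, adjusted p = 0.00559). In FosKO-labelled libraries they were 10.94, 11.04 and 11.31 at 0 h and 11.34, 11.31 and 11.37 at 2 h, a rise of 0.24 (adjusted p = 0.0114) in which 1 of the 0 h libraries reached the 2 h values. That rise rested on the 0 h libraries and the scaling: without replicate 1 at 0 h it was 0.17 (adjusted p = 0.0885), and under quantile normalisation it was 0.01 (adjusted p = 0.888). At 2 h the genotypes did not overlap and differed by 0.74 (SE 0.08, adjusted p = 2.25e-07), or 1.67-fold.

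Earlier differences of Irf2 were small. At 0.5 h it was higher by 0.27 (adjusted p = 0.0104), but by 0.17 (adjusted p = 0.0955) without replicate 3 labelled FosKO. At 0 h it was higher by 0.22 (adjusted p = 0.0323), and this call was lost without any 1 of the LysM-Cre libraries (0.24 with adjusted p = 0.0502 without replicate 1, 0.22 without replicate 2, 0.21 without replicate 3) and without replicate 3 labelled FosKO (0.12, adjusted p = 0.254). It was also lost with no filter, under quantile normalisation (0.16), in high 18S libraries alone and with only those groups in the fit. At 1 h the difference of 0.16 was not called, except with only those groups in the fit (adjusted p = 0.0214). In the low and high 18S sets the difference of Irf2 was 0.18 and 0.31 at 0.5 h, then 0.09 and 0.24 at 1 h. The response to LPS at 0.5 h in FosKO-labelled libraries was 0.18 and not called, but was 0.28 (adjusted p = 0.0181) without replicate 3 at 0 h.

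Irf8 (ENSMUSG00000041515, chr8:120736358-120756694), which sets myeloid identity together with PU.1, changed little until 1 h and then rose steeply. Values in LysM-Cre were 11.47, 11.46 and 11.42 at 0 h, dipped to 11.11, 11.17 and 11.26 at 1 h, then reached 12.51, 12.45 and 12.65 at 2 h. Values in FosKO-labelled libraries were 11.56, 11.57 and 11.55 at 0 h, stood at 11.46, 11.51 and 11.50 at 1 h, then reached 13.85, 13.85 and 13.90 at 2 h. The lowest 2 h library labelled FosKO was thus well above the highest of LysM-Cre, at 12.65. In LysM-Cre Irf8 first fell by 0.27 (SE 0.04, adjusted p = 2.11e-05) at 1 h and was then 1.09 above 0 h at 2 h, or 2.13-fold. In FosKO-labelled libraries the value at 1 h was -0.07, which was not called, and it was called at -0.19 (adjusted p = 0.000356) under quantile normalisation, and the rise at 2 h was 2.31, or 4.95-fold.

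The genotype difference of Irf8 was 0.11 at 0 h, 0.14 at 0.5 h, 0.31 (SE 0.04, adjusted p = 5.5e-06) at 1 h and 1.33 (adjusted p = 3.07e-15), or 2.51-fold, at 2 h. The call at 0 h (adjusted p = 0.0451) was lost on leaving out any 1 of the 6 libraries, where the value ran from 0.09 to 0.12, with no filter, with no variance trend and under quantile normalisation (0.05, adjusted p = 0.354). That at 0.5 h was lost without replicate 3 labelled FosKO (0.11, adjusted p = 0.0683) and under quantile normalisation (0.06, adjusted p = 0.208). The differences in the sets of low and high 18S RNA were 0.12 and 0.15 at 0.5 h, then 0.24 and 0.40 at 1 h. The call at 2 h held on leaving out each library. Gm20388, a long locus that overlaps Irf8 on the same strand, was not called between genotypes at any time (-0.03 at 0 h and -0.02 at 2 h), and whether the genes share reads was not tested.

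Irf4 (ENSMUSG00000021356, chr13:30749226-30766976), a factor of alternatively activated macrophages and lymphocytes and the lowest of the 8 genes, was the only member called lower in FosKO-labelled libraries with the values as deposited. At 0 h its values were 5.70, 5.58 and 5.98 in LysM-Cre against 5.54, 5.12 and 4.84. At 1 h they were 8.08, 8.17 and 8.32 against 6.95, 6.71 and 7.04. At 2 h they were 6.68, 6.86 and 6.65 against 5.61, 5.79 and 5.85. The genotypes did not overlap at any of the 4 times, and at 0 h the gap between them was narrow. The difference was -0.58 (SE 0.14, adjusted p = 0.00296) at 0 h, -0.81 at 0.5 h, -1.29 (adjusted p = 5.88e-07) at 1 h and -0.98 (adjusted p = 1.01e-05) at 2 h, or 0.67-, 0.57-, 0.41- and 0.51-fold of LysM-Cre. With only the 0 h groups in the fit the value at 0 h had an adjusted p of 0.0505. Within the sets of low and high 18S RNA the differences were -0.76 and -0.83 at 0.5 h, and -1.30 and -1.20 at 1 h.

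Irf4 was a transient responder in both genotypes. LPS raised it by 2.44 (SE 0.14, adjusted p = 1.27e-11), or 5.42-fold, at 1 h in LysM-Cre and by 1.73, or 3.32-fold, in FosKO-labelled libraries, while at 0.5 h neither change was called. From 1 to 2 h, a comparison added after the values were seen, it fell by 1.46 and by 1.15. The responses at 1 h differed by -0.71 (95% interval -1.13 to -0.28, adjusted p = 0.129), which was not called with all libraries but was called without replicate 3 labelled FosKO at 0 h, the lowest of that group (-0.87, adjusted p = 0.0245), and likewise at 2 h, with -0.40 and, without that library, -0.56 (adjusted p = 0.0491).

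**Figure D3:**
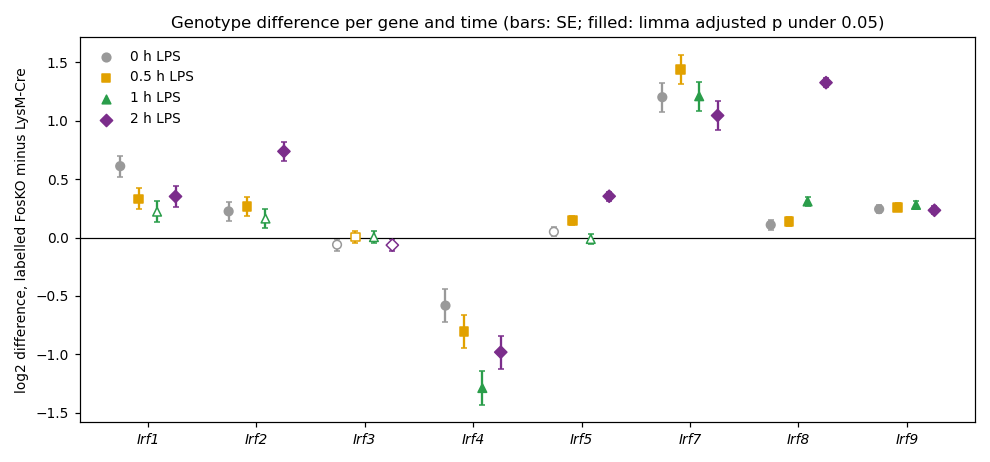
Log2 difference, FosKO-labelled libraries minus LysM-Cre (vertical axis), for each gene at 0, 0.5, 1 and 2 h of LPS; bars are SE and filled symbols mark an adjusted p under 0.05. Irf7 lies between 1.05 and 1.44 at all times, Irf4 between -1.29 and -0.58, and Irf8 moves from 0.11 to 1.33.

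Over the family, LPS reached 1 of 8 genes in LysM-Cre at 0.5 h (Irf1, with 7.24% of all genes called), 5 at 1 h (35.8%) and 8 at 2 h (60.8%). In FosKO-labelled libraries it reached 2 (5.92%), 4 (32.6%) and 8 (62.1%). The second gene at 0.5 h was Irf5, at 0.15 (adjusted p = 0.0316), a call that was lost without replicate 1 (0.13) or 2 (0.15) at 0 h or replicate 3 at 0.5 h (0.10). At 2 h the median change of the 8 genes was 0.63 in LysM-Cre and 0.56 in FosKO-labelled libraries, beside -0.02 and 0.00 for all genes. All 8 genes rose by 2 h in FosKO-labelled libraries, as did 32.6% of all genes, and 7 rose in LysM-Cre, as did 30.6%, with Irf2 the exception. Under quantile normalisation 6 of the 8 were called in FosKO-labelled libraries at 2 h, without Irf2 (0.01, adjusted p = 0.888) and Irf7 (0.13, adjusted p = 0.31). From 1 to 2 h, a comparison added after the values were seen, 7 genes changed in LysM-Cre (52.3% of all genes) and 6 in FosKO-labelled libraries (50.7%).

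**Figure D4:**
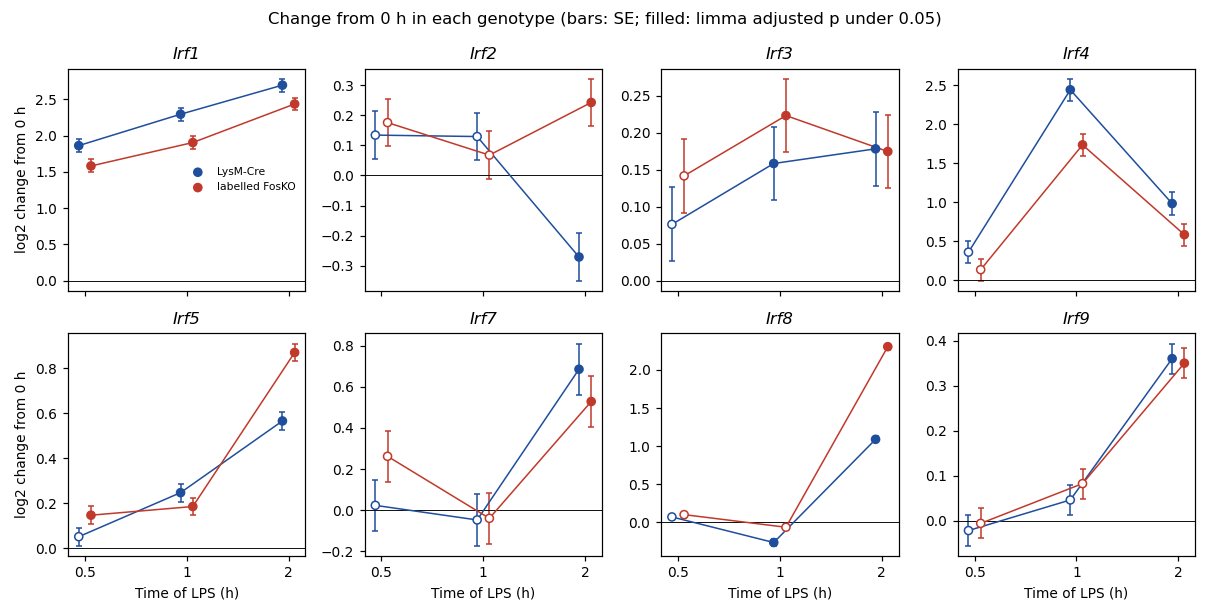
Log2 change from 0 h (vertical axis, scaled per gene) after 0.5, 1 and 2 h of LPS in LysM-Cre and in FosKO-labelled libraries; bars are SE and filled points mark an adjusted p under 0.05. The lines part between 1 and 2 h for Irf8, Irf2 and Irf5, and the small rise of Irf5 at 1 h in FosKO-labelled libraries changed sign under quantile normalisation (-0.010).

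The difference in LPS response between genotypes was tested directly. By limma none of the 8 genes was called at 0.5 h, where 0.115% of all genes were, or at 1 h, where 1.22% were. At an unadjusted p under 0.05 there were 1 and 3 of the 8. The share of all genes at that unadjusted threshold is not given, so these 2 counts cannot be set against the shares called. Under quantile normalisation Irf1 was called at 1 h (-0.46, adjusted p = 0.031) and at 2 h (-0.49, adjusted p = 0.00331). With the replicate number as a term within genotype, Irf1 was called at 1 h (-0.39, adjusted p = 0.0399). Without LysM-Cre 1 h replicate 3, Irf8 was called at 1 h (0.24, adjusted p = 0.0435). At 2 h 3 genes were called, where 15% of all genes were: Irf8 rose more in FosKO-labelled libraries by 1.22 (SE 0.06, adjusted p = 3.41e-11), Irf2 differed by 0.51 (SE 0.11, adjusted p = 0.0032) and Irf5 rose more by 0.30 (SE 0.06, adjusted p = 0.000759). A called difference of at least 2-fold, as for Irf8, was found for 0.568% of genes. In a comparison added after the values were seen, the step from 1 to 2 h differed for the same 3 genes, by 1.02 for Irf8, 0.58 for Irf2 and 0.37 for Irf5, and for 11.6% of all genes. The value of Irf2 was 0.50 and not called (adjusted p = 0.0778) in high 18S libraries alone. The intervals of the other 5 genes at 2 h ran from -0.83 to 0.22.

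Across the 24 libraries the members did not follow a single pattern. Pearson's r was 0.92 for Irf5 with Irf8, 0.85 for Irf7 with Irf9 and 0.84 for Irf5 with Irf9, and -0.49 for Irf4 with Irf7, which was the lowest. The genes most like each member, among tested genes that have a symbol and whose linear mean was 50 or more, were Ccrl2 (r = 0.985), Cited2 and Il10ra for Irf1, Whsc1l1 (0.941), Inpp1 and Ehd4 for Irf2, and Rcan1 (0.822), Lonrf1 and Zfp330 for Irf3. They were Acvr2a (0.960), Mir17hg and Ppp1r18 for Irf4, and Crlf3 (0.991), Chd1 and Katna1 for Irf5. They were Pyhin1 (0.996), Phf11d and Phf11b, all known as interferon-induced genes, for Irf7, then Phf6 (0.977), Rsbn1l and Sec24b for Irf8, and Sp140 (0.982), Fpr2 and Parp14 for Irf9. These libraries share groups and times, so the values describe the pattern over 8 groups. By Spearman's rho the first gene stayed the same only for Irf7.

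The pathway lists below are read against all genes tested, where the share called higher in FosKO-labelled libraries was, in time order from untreated cells, 19.5%, 21.2%, 18% and 24.4%, and the share called lower was 15.9%, 19.7%, 15.9% and 20.3%. LPS for 2 h changed 60.8% of all genes in LysM-Cre and raised 30.6%. The lists were chosen with earlier results of these data known, so counts from them are description and not a test. Among genes of the TLR4 route that activates IRF3 and IRF5, 8 of 14 were higher and 2 lower in FosKO-labelled libraries at 0 h, with a median of 0.13 (19.5% and 15.9% of all genes), and 7 were higher and 2 lower at 2 h (24.4% and 20.3%). Ikbke, a kinase of IRF3, was higher by 0.60 at 0 h (adjusted p = 1.73e-06), Tank, its scaffold, by 0.52, and Ticam1, the adaptor TRIF, by 0.27, while Cd14 was lower by 0.22. At 2 h Tlr4 itself was higher by 0.49 and Traf3 lower by 0.35. LPS at 2 h in LysM-Cre raised 11 of the 14 (30.6% of all genes), with Irak2 up by 1.63 and Ikbke by 1.49, and lowered Tlr4 by 0.92.

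Of 8 factors that bind DNA with IRF proteins, 6 were called higher at 0 h (19.5% of all genes) and 4 at 2 h (24.4%), and none was called lower. The 4 of 8 called at 2 h is near the share of all genes called in either direction, 44.6%. Stat2, a partner of IRF9, exceeded LysM-Cre by 0.93 before LPS and by 0.57 after 2 h, while Batf2 was higher by 0.72 at 0 h. Ikzf1 was higher by 0.57 at 2 h, and LPS at 2 h in LysM-Cre raised it by 1.50, Batf by 1.84 and Spi1, which encodes PU.1, by 0.66. Of the interferon receptors and JAK kinases, 4 of 7 were higher and 1 lower at 0 h (19.5% and 15.9% of all genes). After 2 h of LPS 2 were higher and 3 lower (24.4% and 20.3%). At 2 h Ifnar1, a chain of the type I interferon receptor, was lower by 0.41 (adjusted p = 8.97e-11) and Tyk2, the kinase bound to it, was higher by 0.37.

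The corepressors that bind IRF2 moved the other way. Irf2bp1, Irf2bp2 and Irf2bpl were lower in FosKO-labelled libraries at 2 h by 0.49, 0.26 and 0.32, where 20.3% of all genes were lower. None of the 3 was called at 0 h, where 35.4% of all genes were. LPS at 2 h in LysM-Cre lowered all 3, Irf2bp2 by 2.43 (adjusted p = 1.18e-19), Irf2bpl by 0.86 and Irf2bp1 by 0.50. That comparison called 60.8% of all genes changed and 30.6% raised. Of the proteins that limit IRF or interferon signalling, 6 of 8 were higher and 1 lower at each time between genotypes, where 18% to 24.4% of all genes were higher and 15.9% to 20.3% lower. Usp18, which blocks the type I receptor, was higher by 1.09 at 0 h, Trim30a by 0.69 and Trim21, a ligase for IRF proteins, by 0.51, while Rnf5 was lower by 0.20. LPS at 2 h in LysM-Cre raised Socs1 by 3.91 and Peli1 by 2.87.

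Target genes of the family, in lists chosen with earlier results of these data known, were mostly higher in FosKO-labelled libraries. Of the genes driven by ISGF3, 12 of 12 were higher at each time (18% to 24.4% of all genes), with medians of 0.78, 0.89, 0.87 and 0.78 on the log2 scale, where the median of all genes was near 0. Bst2 was higher by 0.91 at 0 h, Xaf1 and Oas3 by 0.73 each, and Oas1a by 0.63 at 2 h, and LPS at 2 h in LysM-Cre raised Mx2 by 3.27, Mx1 by 2.75 and Ifih1 by 1.91. Of genes that IRF3 can drive directly, 8, 9, 9 and 8 of 9 were higher at the 4 times (19.5%, 21.2%, 18% and 24.4% of all genes), with a median of 1.34 at 0 h and 1.31 at 2 h. At 0 h Ccl5 was higher by 1.96, Rsad2 by 1.92 and Ifit3 by 1.50. Ifnb1, which encodes interferon beta, did not differ detectably at 0 h (0.10, 95% interval -0.17 to 0.36) and was higher by 1.69, 3.18 and 3.00 at 0.5, 1 and 2 h. At 0 h Ifnb1 ran from 6.04 to 6.26 over both genotypes. Whether interferon had a part in the 0 h differences of Irf7 and the 12 ISGF3 targets was not tested.

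Of genes known to need IRF1 or IRF8, 8 of 10 were higher at every time (18% to 24.4% of all genes), with 1 lower at 0, 0.5 and 1 h, and their median difference was 0.62 at 0 h and 0.53 at 2 h, beside 0.00 for all genes. Il12b, a subunit of interleukin 12, was higher by 1.39 at 2 h (adjusted p = 2.86e-09), Tap1, the peptide transporter, by 0.81 at 0 h and 0.75 at 2 h, Psmb9 by 0.59 at 0 h and Cybb, a subunit of the phagocyte oxidase, by 0.75 at 0 h and 0.44 at 2 h. Cst3 was lower by 0.19 at 0 h. LPS at 2 h in LysM-Cre raised Il12b by 5.80, Nos2 by 4.61 and Cybb by 0.88.

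Several members are also known from other marrow cells, so markers of those cells were read beside them. Of 8 plasmacytoid dendritic cell markers 4 passed the filter, and their summed linear level was 4422 to 5534 in LysM-Cre and 6962 to 9382 in FosKO-labelled libraries, most of it Bst2 and Tcf4, of which Bst2 is also an ISGF3 target. Tcf4 was called higher in FosKO-labelled libraries by 0.11 at 0 h and 0.52 at 2 h, and Cox6a2 (4.68 to 5.51) by 0.56 and 0.24. Siglech (1.01 to 1.58), Pacsin1 (0.04 to 0.40) and Ly6d (-0.63 to -0.45) did not pass the filter. Of the conventional dendritic cell markers 6 of 8 passed, with sums of 165.8 to 257.6 in LysM-Cre and 153.2 to 229 in FosKO-labelled libraries, which overlapped over the 4 times together but not at 0 h (169.5 to 174.3 against 153.3 to 158.5). Zbtb46 was lower in FosKO-labelled libraries at 2 h (-0.96, adjusted p = 0.000121) and Kit at 0 h (-0.43, adjusted p = 0.0494), while Flt3 (1.27 to 1.82) and Cd209a (-1.98 to -1.94) did not pass. Of 8 B cell markers 3 passed (Blnk, Cd22 and Cd79b), with sums of 2899 to 3192 and 3155 to 3554. At each time these sums did not overlap (2899 to 2990 against 3155 to 3499 at 0 h, and 3100 to 3191 against 3467 to 3533 at 2 h). Cd22 was higher by 0.85 before LPS and by 0.73 after 2 h, Blnk by 0.13 and 0.14, while Cd79b was lower at 2 h (-0.26), and Pax5 was at 0.17 to 0.49. Of 8 neutrophil markers 4 passed, with sums of 350.1 to 463.5 and 284.9 to 354.7, most of it Mmp8. These sums overlapped between genotypes at 0.5 h only (350.1 to 382.9 against 296.5 to 353.6). In FosKO-labelled libraries 3 of these 4 were called lower at 0 h (Ngp -0.96, S100a9 -0.81, S100a8 -0.47), as were 15.9% of all genes. At 2 h all 4 were called lower (Ngp -1.04, S100a9 -1.07, S100a8 -0.60 and Mmp8), as were 20.3% of all genes. Ly6g and Elane were at the lowest value of the table. T and NK cell markers (2 of 8 passed, Cd4 and Lck) summed to 213 to 275.6 and 277.5 to 367.9, with Cd4 higher by 0.42 at 0 h and 0.445 at 2 h, Lck higher by 0.51 at 0 h, and Cd3e and Cd3g below -0.9, and stromal markers (5 of 8 passed) summed to 251 to 2488 and 242.7 to 1594, most of it Vcam1 at 1 and 2 h, with Vcam1 (-0.67) and Col3a1 (-0.53) lower in FosKO-labelled libraries at 2 h. Their part in the members' differences was not tested, and in bulk libraries fewer cells of a type and less RNA per cell cannot be told apart.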

How the data were processed

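RNA was sequenced from a single end, strand-specifically, and per the labels and the study's methods reads were mapped and counted per gene with STAR 2.5.2a and RSEM 1.2.31 on GRCm38 (mm10), with DESeq2 1.16.1 in the submitters' processing notes. The methods name RefSeq genes, but the table carries Ensembl identifiers. The authors deposited normalised log2 values, from -2.22 to 19.39, whose scale resembles a regularised log, which would understate differences of genes with few reads such as Irf4. Whole reads could not be recovered, so depth is unknown and no counting interval is given. Of 24273 identifiers, 99.6% were found in GENCODE M21, and 1017 rows had no symbol.

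Genes were kept for testing when the linear value (2 raised to the log2 value) reached 5 or more in 3 or more libraries, which left 13901 genes. All 24 libraries entered 1 limma fit (limma 3.58.1, R 4.3.3, variance trend, 8 group means, 16 residual degrees of freedom) on the values as deposited. The fit gave 13 comparisons, and 3 on the step from 1 to 2 h were added after the values were seen. Adjusted p-values are Benjamini-Hochberg over all tested genes, and fold changes are 2 to the power of the log2 difference. With 3 libraries against 3 an exact permutation test cannot go below a two-sided p of 0.1, so none was used. Intervals are 95% with 16 degrees of freedom.

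The members and the gene lists were chosen with earlier results of these data known. Named genes were all members, Fos and Lyz2, from each pathway list the called genes with the largest absolute moderated statistic (up to 3 in each direction at 0 h and 2 h between genotypes and at 2 h of LPS in LysM-Cre), and the 3 genes with the highest r to each member. Ifnb1 at other times, the overlapping genes and the 18S row were added after their values were seen. Some genes of these lists are not reported here by name. Cell type markers were read as summed linear levels. Alternatives were a pseudocount of 1, no filter and a filter at 50, quantile normalisation and median centring, no variance trend, only the groups compared, the replicate number as a term (also within genotype), the 18S set as a term, the high 18S libraries alone, and each library left out in turn. Promoter windows came from RefSeq, and motifs were searched in Python 3.11.15.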

Additional observations from a re-analysis of the deposited data

Results flagged for a closer look

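Results were singled out where the LPS response itself differed between genotypes by the limma test of that difference. At 2 h the rise was larger in FosKO-labelled libraries by 1.22 for Irf8 and by 0.30 for Irf5, and the responses of Irf2, a fall of 0.27 in LysM-Cre and a rise of 0.24 in FosKO-labelled libraries, differed by 0.51. That rise of Irf2 was 0.17 (adjusted p = 0.0885) without replicate 1 labelled FosKO at 0 h and 0.01 (adjusted p = 0.888) under quantile normalisation. In the step from 1 to 2 h, added after the values were seen, the same 3 genes differed, by 1.02 for Irf8, 0.58 for Irf2 and 0.37 for Irf5. Differences in response at 2 h were called for 15% of all genes tested and differences in the step for 11.6%. Each group held 3 libraries, and single outlying libraries were not tested for.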

How the results depend on the processing

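Of the recalculated values for single genes, 2270 kept their side of the threshold, 41 lost a call, 24 gained one and 1 reversed. Direction was compared only for values called in the main fit or in the alternative. A change of sign in a value called in neither was counted as kept. The reversed value was the LPS response of Irf5 at 1 h in FosKO-labelled libraries, -0.010 (adjusted p = 0.851) under quantile normalisation, and its cause was not tested. The count of genes called for LPS at 0.5 h in FosKO-labelled libraries was 1 in place of 2 with no filter, under quantile normalisation, with no variance trend and with only the groups compared, and 1 to 3 on leaving out a library. The count for LPS at 0.5 h in LysM-Cre was 2 in place of 1 with only the groups compared. The count for the difference in response at 1 h was 1 in place of 0 under quantile normalisation and with the replicate block within genotype (Irf1 in both, at -0.39 with adjusted p = 0.0399 under the block), and 0 to 1 on leaving out a library. For the genotype difference at 0 h, the count of 6 became 4 to 5 on leaving out a library and was 4 to 6 under the other settings. For the genotype difference at 0.5 h, leaving out a library gave 3 to 7 genes, with 3 (Irf4, Irf7 and Irf9) without replicate 3 labelled FosKO. Quantile normalisation moved the share of all called genes that were higher from 54.6% to 43.0% between genotypes at 2 h and from 52.5% to 39.2% for LPS at 2 h in FosKO-labelled libraries, with the median of all genes at -0.03 and -0.06. By a cut-off of r above 0.1 in 3 of 3 pairs, replicate numbers paired libraries only for 0 with 0.5 h and 0.5 with 1 h in FosKO-labelled libraries. Below that cut-off, all same-number pairs exceeded all other pairs in 3 LysM-Cre comparisons. The lowest same-number r and highest other r were 0.035 and 0.017 (0 with 1 h), 0.017 and 0.007 (0 with 2 h), and 0.025 and 0.004 (1 with 2 h). Elsewhere same-number and other pairs overlapped, and the main fit has no replicate term. With the replicate block the counts of genotype calls were 6, 7, 5 and 7, where Irf1 at 1 h was gained (0.22, adjusted p = 0.0196), and Irf2 was called for the step from 1 to 2 h in FosKO-labelled libraries (0.18, adjusted p = 0.0374). With the block within genotype Irf9 was called for LPS at 1 h in those libraries (adjusted p = 0.0384). Depth is unknown, and the lowest of the 8 genes, Irf4, is the one whose differences the scale may understate most.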
